A study of Rattus norvegicus with 11 samples.

Results

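Mitochondria carry their own ribosome and a set of protein import machines, and nearly every protein in both is encoded in the nucleus. The genes of this machinery were followed in RNA sequencing libraries of rats with and without a mutation of CSB, the Cockayne syndrome protein encoded by Ercc6. The members were protein-coding features whose gene name starts with Mrpl, Mrps, Timm or Tomm and a digit, together with Tfam, Polg, Polg2, Polrmt, Twnk, Tufm, Lonp1 and Clpp, that were listed in every file. In all, 58 features met the name rule and 53 of them were members, out of 23093 features shared by all libraries. Polg, Polg2, Polrmt, Twnk and Clpp were not among the members, and the 5 features listed for some libraries only (a second Timm10b entry, Timm8b, Mrpl20, Mrpl4 and Mrps2) had 2 to 4 reads each in total. By role the members were 19 proteins of the large and 15 of the small ribosomal subunit, 7 of the outer membrane translocase, 5 of the inner membrane translocase, 4 chaperones of the intermembrane space, Tfam, Tufm and Lonp1.

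The 11 libraries came from 10-week-old rats of the strain that the labels spell Sprague-Dawly (SD), and the labelled tissue is Cerebellum cortex. Of these, 6 were homozygous for the mutation (CSBR571X/R571X), 2 are called heterozygous although their second allele is written only as a minus sign (CSBR571X/-), and 3 were wild type. The authors normalized the libraries in 2 sets: set 1 joins homozygous replicates 1 to 3 and both heterozygous libraries, and set 2 joins homozygous replicates 4 to 6 and the 3 of wild type. Each library held between 5406669 and 8723823 reads on features, and nothing in the labels says that libraries came from separate animals, so the p-values measure only the spread between these samples.

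Ercc6 was lower in homozygous than in wild-type libraries, while markers did not bear out the labelled tissue clearly. Ercc6 stood at 123, 119 and 85.8 normalized reads in homozygous replicates 4 to 6 and at 295, 407 and 356 in wild type, with a log2 difference of -1.69 (SE 0.22, adjusted p = 0.0171 by limma). In set 1 it stood at 157, 158 and 153 in homozygous replicates 1 to 3 and at 228 and 178 in the heterozygous libraries (log2 difference -0.37, SE 0.25, adjusted p = 0.576). Of 8 markers of cerebellar granule and Purkinje cells, Calb1 and Neurod1 were listed in every file, while Pcp2, Car8, Gabra6, Cbln1, Cbln3 and Zic1 were not. The forebrain transcription factor Neurod6 was present in every library, at 50.9 to 309 CPM (counts scaled to library size).

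The mitochondrial ribosome makes the few respiratory chain subunits that mitochondrial DNA encodes, while the remaining subunits are made in the cytosol and imported. Precursor proteins enter through the translocase of the outer membrane (the Tomm proteins), and those with a presequence pass on through the inner membrane translocase (the Timm17, Timm23, Timm44 and Timm50 group), while small Timm proteins escort membrane proteins across the intermembrane space. Tfam packages mitochondrial DNA and starts its transcription, Tufm brings aminoacyl-tRNA to the ribosome, and Lonp1 is a protease that degrades damaged proteins of the matrix. Neurons depend heavily on this supply of respiratory chain protein, and CSB, best known from transcription-coupled repair, has also been found in mitochondria.

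The members spanned a wide range of levels. Divided by the feature length that the files give, the mean level ran from 742 RPKM (reads scaled to feature length and library size) for Tomm7, a small subunit of the outer membrane translocase, down to 0.0755 RPKM for Tomm34, a cytosolic cochaperone of import. The order from the top was Tomm7, Tomm20 (396 RPKM), a receptor for presequences, Mrpl54 (354 RPKM), Timm17a (211 RPKM), a channel protein of the inner membrane, Mrpl41 (194 RPKM), Mrpl12 (147 RPKM), Mrps16 (144 RPKM), Mrpl3 (120 RPKM), Lonp1 (114 RPKM) and Tufm (93.6 RPKM). Tomm7, at 576 to 1077 RPKM over the libraries, lay above every value of Tomm20 (294 to 529 RPKM). Each later pair of neighbours in this order overlapped in range, so their places are not separated by the spread. Tfam lay lower, at 45.8 RPKM. Counted without regard to length, Mrps14 was the highest small subunit member, with a mean of 783 normalized reads, and Mrps23 the one of that class with the widest range at a mean of at least 50, 112 to 260 over the libraries.

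Of the 53 members, 30 had a mean of at least 50 normalized reads and 17 were under 10. The members with a mean of at least 50 comprised 13 of the 19 large subunit proteins but 5 of the 15 small subunit proteins, 5 of 7 in the outer membrane, 4 of 5 in the inner membrane and none of the 4 intermembrane space chaperones. Timm10b, an intermembrane space protein of the small Timm family, was the highest of those chaperones with a mean of 33.9 normalized reads. Low values often sat beside another feature at the same place. Of the 23 members under a mean of 50, 14 overlapped another feature, in 12 cases on the same strand, against 9 of the 30 higher members with any overlap. Mrpl51 had 23.2 to 46.6 normalized reads, and an unnamed feature on its strand had 213 to 440. Mrps17 had 2.19 to 6.66 and its unnamed same-strand neighbour 35.8 to 179. Levels of members counted beside such a neighbour are uncertain.

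**Figure D1:**
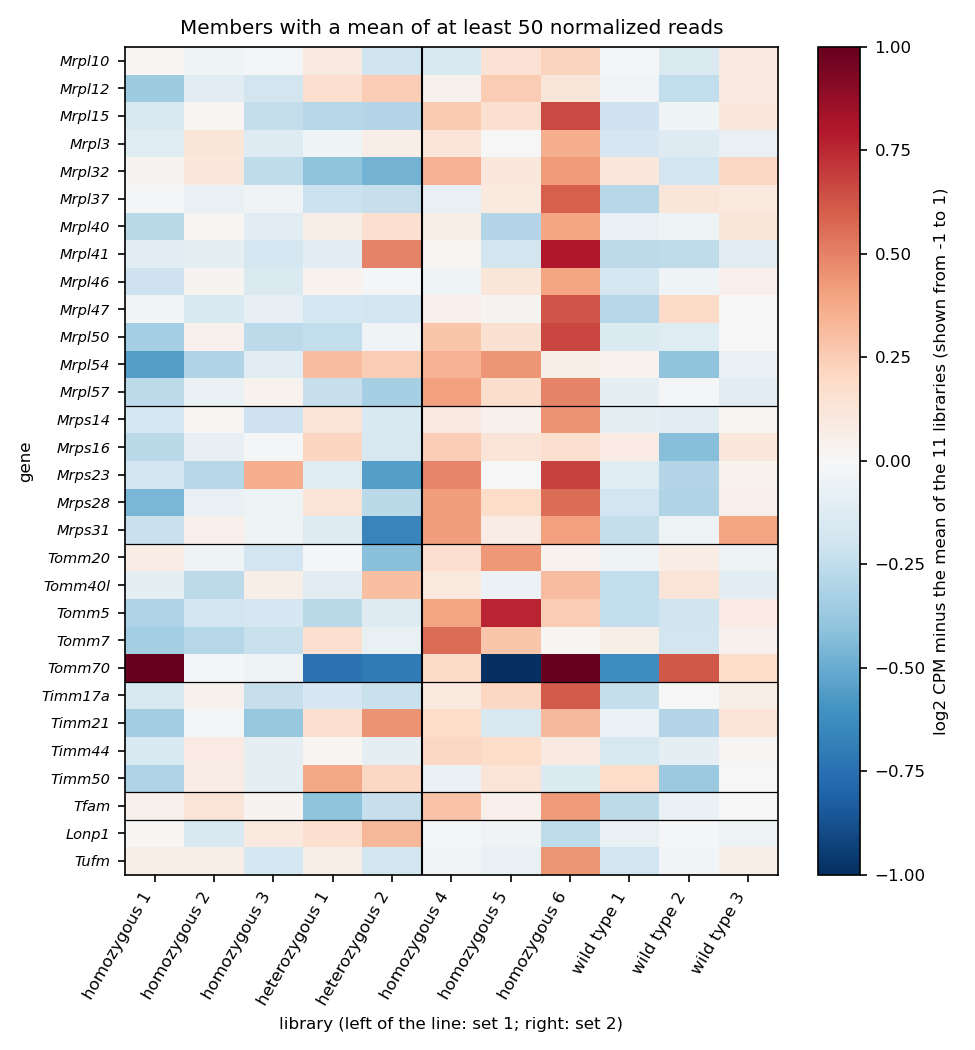
Log2 deviation of each member with a mean of at least 50 normalized reads from its own mean over the 11 libraries, with members in rows grouped by role and libraries in columns grouped by genotype and set. Homozygous replicate 6 holds the highest value of 18 of the 30 members, and Tomm70 varies most between libraries.

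The central comparison was of homozygous with wild-type rats inside set 2, with 3 libraries on each side. The Y-linked gene Eif2s3y was present in homozygous replicates 4 and 6 and in none of the 3 wild-type libraries, so sex was not balanced in it. Most members had higher values in the homozygous libraries by a small amount: of the 49 members with a mean of at least 1, 40 had a positive log2 difference (49.9% of all features did) and the median was 0.26, while the median of all 20956 features tested was -0.0011. None of the 49 passed the threshold of an adjusted p under 0.05 in limma, where 0.0382% of all features did (8 of 20956). The same count was 0 in edgeR, DESeq2 and limma-voom. At an unadjusted p under 0.05 limma had 6 members higher, or 12.2%, against 3.34% of all features, and 1 lower, or 2.04%, against 3.01%. At a mean of at least 50 the higher share was 20% of 30 members and 5.27% of 4044 protein-coding features. In the shortest length quartile of those features it was 138 of 1011, and in the next 42 of 1011, so the share also moved with feature length. In bulk tissue, more cells of a type that holds much of these RNAs and more RNA per cell cannot be told apart.

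Counted by library, the 3 homozygous values all lay above the 3 wild-type values for 14 of the 49 members, or 28.6%, against 6.14% of all features and 7.2% of protein-coding ones. No member had all homozygous values below all wild-type values, which held for 5.27% of all features. Such values were found for 0.396% of protein-coding features in the shortest length quartile at a mean of at least 50. Among the 30 members with a mean of at least 50, 28 were positive (59.4% of the 4044 protein-coding features at that level were) and 12 did not overlap, all higher (8.63% of those 4044 features were higher without overlap, and 3.14% lower). The median of the 30 members was 0.26 and that of the 4044 features 0.07. With a term for the presence of Eif2s3y in the fit, 27 of the 30 were positive, the median of the 49 members was 0.22, and 2 features in place of 8 passed the threshold, none a member.

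The 4 classes with more than 2 members at that level shared the direction. The 13 large subunit proteins had a median log2 difference of 0.27 and the 5 small subunit proteins also 0.27, each of the 18 being positive. The 4 inner membrane translocase members had a median of 0.21, all positive, and the 5 of the outer membrane a median of 0.22 with Tomm70 as the exception at -0.01. Tufm had a value of 0.17 and Lonp1 one of -0.06.

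**Figure D2:**
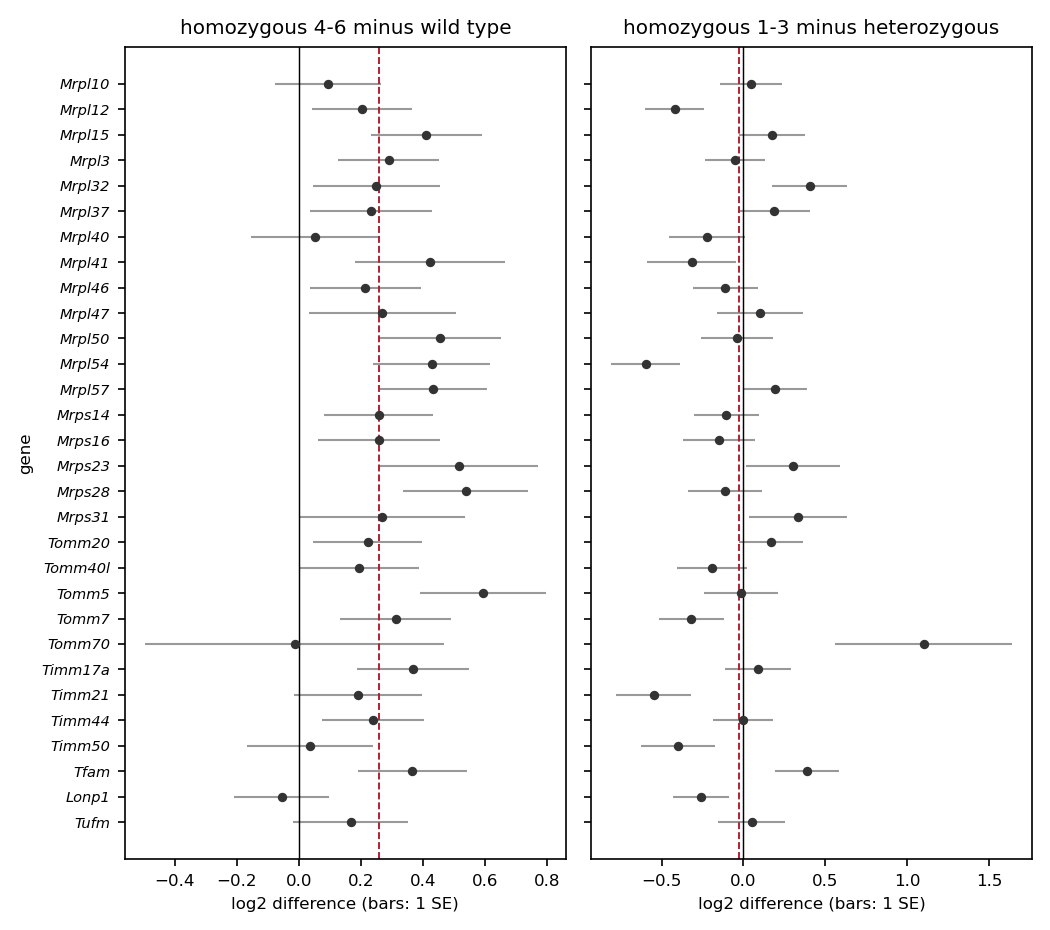
Log2 difference on the log2(value + 1) scale for each member with a mean of at least 50 normalized reads, homozygous minus wild type (set 2, left) and homozygous minus heterozygous (set 1, right), with bars of 1 standard error and a dashed line at the members' median. Of the 30 members, 28 are positive against wild type and 13 against heterozygous, and none passes an adjusted p under 0.05 in limma.

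The member with the smallest p was Tomm5, which stabilizes the outer membrane pore. It had 334, 432 and 299 normalized reads in homozygous replicates 4 to 6 and 212, 222 and 267 in wild type. The groups did not overlap, and the log2 difference was 0.59 (SE 0.20, adjusted p = 0.675 by limma). In set 1 the homozygous libraries had 205, 229 and 226 and the heterozygous ones 212 and 233, so homozygous replicates 1 to 3 lay at the wild-type level and not at that of replicates 4 to 6. Such levels across the sets come from tables normalized separately and are set side by side without a test.

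Mrps28, a small subunit protein, had 645, 550 and 700 normalized reads in homozygous replicates 4 to 6 and 418, 391 and 496 in wild type. It too was higher in each homozygous library of set 2, by 0.54 (SE 0.20, adjusted p = 0.727). Homozygous replicates 1 to 3, at 351, 469 and 466, stayed within or below the wild-type range.

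The other 4 of the first 6 belong to the large subunit. Mrpl57 had 698, 593 and 727 normalized reads in homozygous replicates 4 to 6 against 487, 519 and 483 in wild type (log2 difference 0.43, SE 0.17, adjusted p = 0.742). Mrpl50 had 469, 432 and 607 against 349, 356 and 384 (0.45, SE 0.20, adjusted p = 0.757). For both genes the groups were separated, most widely by homozygous replicate 6. An unnamed feature on the strand opposite to Mrpl57, with 191 to 335 normalized reads, had a log2 difference of -0.33 (SE 0.20, adjusted p = 0.848). Mrpl15 had 1285, 1201 and 1668 against 921, 1043 and 1140 (0.41, SE 0.18, adjusted p = 0.757). Mrpl54, which had 1741, 1866 and 1399 against 1395, 1039 and 1287, was separated by the narrowest margin (0.43, SE 0.19, adjusted p = 0.759), and here replicate 6 was the lowest of the 3.

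Tfam, the activator and packager of mitochondrial DNA, had 542, 463 and 589 normalized reads in homozygous replicates 4 to 6 and 369, 425 and 442 in wild type. The groups did not overlap and the difference of 0.36 (SE 0.18) had an adjusted p of 0.804. Tufm, at 1114, 1081 and 1517 against 988, 1116 and 1172, overlapped (0.17, SE 0.18, adjusted p = 0.930). Lonp1 was the flattest of these, with 2147, 2125 and 1798 against 2051, 2151 and 2086 (-0.06, SE 0.15, adjusted p = 0.969).

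Members on the lower side were mostly genes with a handful of reads. Mrps21 had 0, 3.40 and 1.67 normalized reads in homozygous replicates 4 to 6 against 2.19, 6.57 and 8.30 (log2 difference -1.42, SE 0.64, adjusted p = 0.776). An unnamed feature on the same strand at this place had 75.6 to 144 normalized reads and a log2 difference of 0.27, so the level of Mrps21 is uncertain. Mrps21l (-1.13, adjusted p = 0.855), Mrps18b (-0.58, adjusted p = 0.927), Timm8a1 (-0.43, adjusted p = 0.952) and Mrpl33 (-0.12, adjusted p = 0.984) each had under 9 normalized reads in every library and overlapping groups. On the log2(value + 1) scale the differences of such genes are understated.

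**Figure D3:**
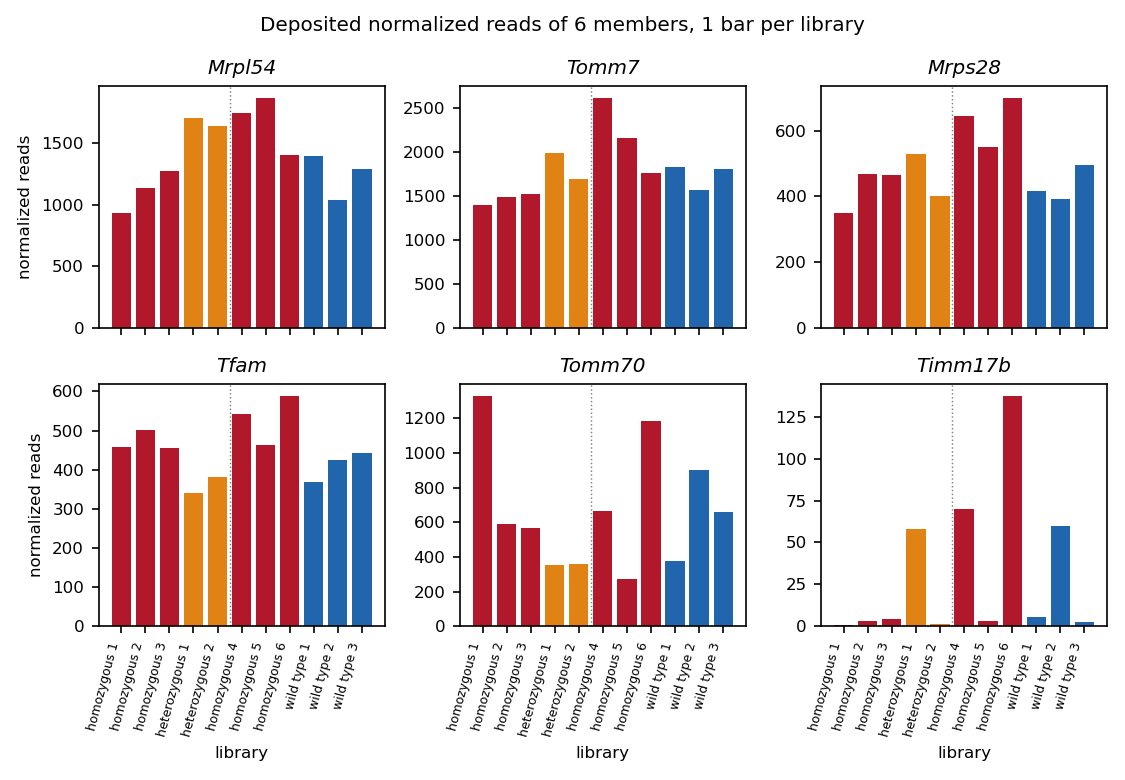
Normalized reads of Mrpl54, Tomm7, Mrps28, Tfam, Tomm70 and Timm17b, with 1 bar per library in red (homozygous), orange (heterozygous) and blue (wild type), and a dotted line between sets 1 and 2. Mrps28 is higher than wild type in homozygous replicates 4 to 6 and not in 1 to 3, Tfam is higher in homozygous libraries in both sets, and Tomm70 and Timm17b vary widely within groups.

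The shift was carried unevenly by the homozygous libraries. With each member of the 30 expressed as its deviation in log2 CPM from its mean over the 11 libraries, the median deviation was 0.18, 0.11 and 0.40 in homozygous replicates 4 to 6 and -0.15, -0.10 and 0.05 in wild type. In homozygous replicates 1 to 3 it was -0.16, -0.03 and -0.11, which is inside or just below the wild-type range, and in the heterozygous libraries -0.03 and -0.16. Homozygous replicate 6 held the highest of the 11 values for 18 of the 30 members, or 60%, and for 28.8% of the 4044 protein-coding features. Without that library the median log2 difference of the 30 members against wild type was 0.21, with 28 positive.

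**Figure D4:**
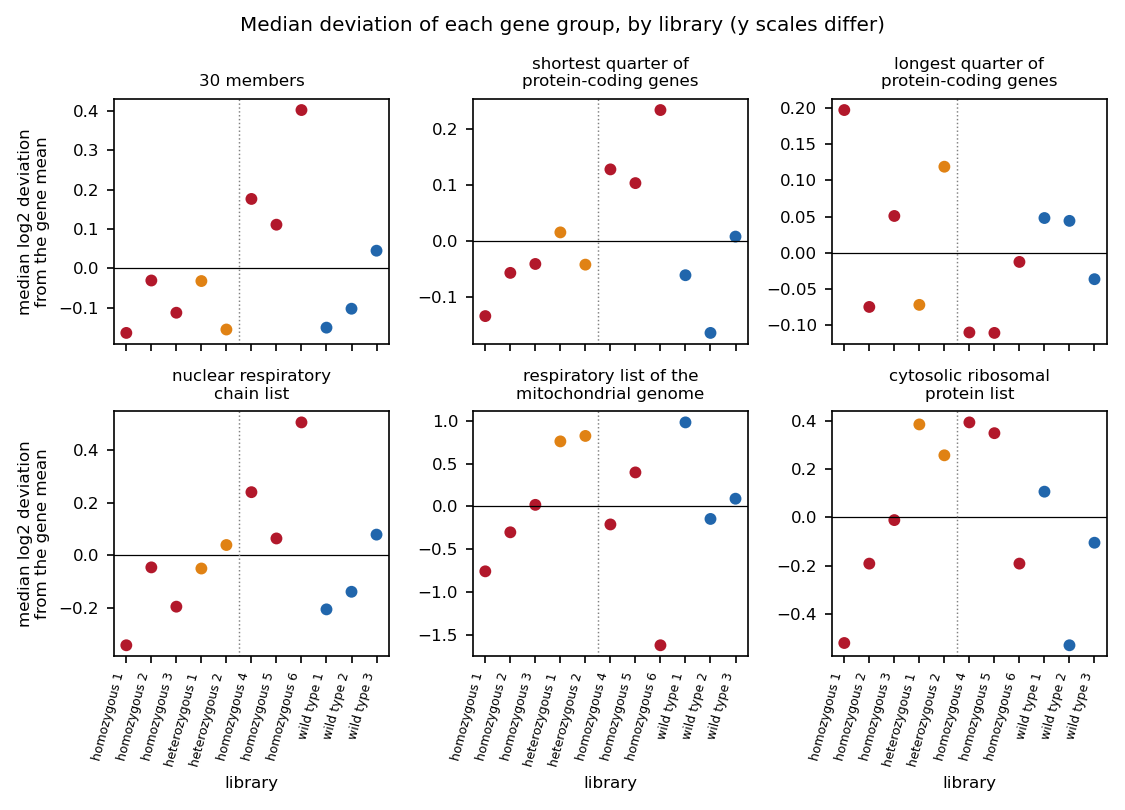
Median log2 deviation from each gene's mean, 1 point per library (red homozygous, orange heterozygous, blue wild type, dotted line between sets 1 and 2), for the 30 members, the shortest and the longest length quartile of protein-coding genes, nuclear respiratory chain subunits, respiratory chain subunits of the mitochondrial genome and cytosolic ribosomal proteins, with y scales that differ. Members are highest in homozygous replicates 4 to 6 (0.18, 0.11 and 0.40), while homozygous replicates 1 to 3 lie between -0.16 and -0.03.

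The difference from wild type moved with feature length across the 4044 protein-coding features with a mean of at least 50, and the members are short beside them. The 30 members had a median feature length of 1615 bases, against 2419.5 for the 4044 protein-coding features. When those features were divided into length quartiles, the median log2 difference was 0.25 in quartile 1 (135 to 1590.5 bases), 0.11 in quartile 2 (up to 2419.5), 0.02 in quartile 3 and -0.09 in quartile 4. Homozygous values lay above wild type without overlap for 21.3%, 7.52%, 3.86% and 1.88% of features in these quartiles. They lay below without overlap for 0.396%, 1.88%, 3.26% and 7.02%.

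Beside features of like length the members stood near the level of quartile 1 and above that of quartile 2, a difference that was not tested. The 15 members in quartile 1 had a median of 0.27, and all 15 were positive where 81.3% of the quartile was. Of these 15, 5 were higher without overlap, or 33.3%. The 13 members of quartile 2 had a median of 0.24, with 12 positive (67% of that quartile) and 6 higher without overlap, or 46.2%. The other 2, Tomm5 and Lonp1, were in quartile 3 and none was in quartile 4. Without homozygous replicate 6 the medians of quartiles 1 to 4 were 0.20, 0.05, -0.03 and -0.12. What part length has in the members' difference was not tested.

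**Figure D5:**
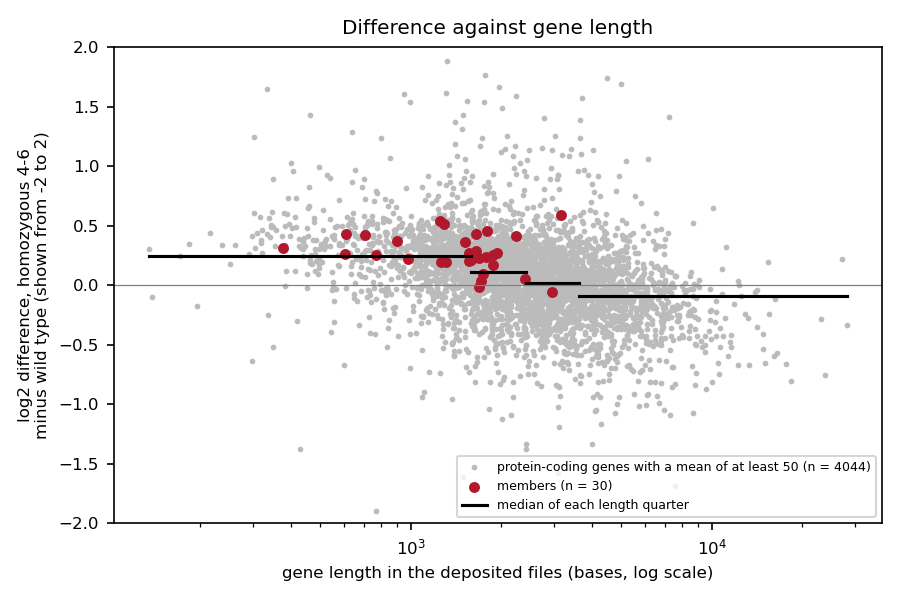
Log2 difference of homozygous against wild type (set 2, shown from -2 to 2) by feature length on a log axis, for protein-coding features with a mean of at least 50 normalized reads in grey and the 30 members in red, with black lines at the median of each length quartile. The quartile medians go down from 0.25 to -0.09, and 28 of the 30 members lie in quartiles 1 and 2.

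Inside set 1, homozygous replicates 1 to 3 were compared with the 2 heterozygous libraries. Here the members moved in both directions: 26 of the 49 had a positive log2 difference (52.7% of all features did), with a median of 0.05 against 0.04 over all features. No member passed the threshold in limma, and neither did any of the 20956 features (0%), although 2539 of them had an unadjusted p under 0.05. edgeR called 0 features and DESeq2 205, and no member was called by either. At an unadjusted p under 0.05 the limma fit had 1 member higher (background 6.16%) and 3 lower (background 5.96%). Without overlap, 8 of the 49 members were higher and 8 lower, which is 16.3% each, against 15.2% and 15.1% of all features. Of the 30 members with a mean of at least 50, 13 were positive (background 51.1%), 6 were higher without overlap (background 20.4%) and 7 lower (background 22.1%).

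Mrpl54 and Mrpl12 of the large subunit led the lower side. Mrpl54 had 932, 1135 and 1270 normalized reads in the homozygous libraries and 1704 and 1635 in the heterozygous ones. Both heterozygous values exceeded all homozygous ones, and the log2 difference was -0.60 (SE 0.21, adjusted p = 0.326 by limma). Mrpl12 had 1152, 1398 and 1302 against 1666 and 1761 (-0.42, SE 0.18, adjusted p = 0.388).

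Of the translocase subunits, 3 were also among the 6 smallest p values on the lower side, while the 6 outer membrane members tested were split, 3 positive and 3 negative. Timm21, which links the outer and inner membrane translocases, had 346, 446 and 340 normalized reads in the homozygous and 496 and 606 in the heterozygous libraries (-0.55, SE 0.23, adjusted p = 0.378). Timm50, the receptor of the inner membrane translocase, had 302, 403 and 352 against 492 and 433 (-0.40, SE 0.23, adjusted p = 0.503). Tomm7 had 1402, 1490 and 1531 against 1997 and 1692 (-0.32, SE 0.20, adjusted p = 0.543). In these 3 genes the groups were apart, as they were for Lonp1, which had 2199, 2006 and 2332 against 2458 and 2753 (-0.26, SE 0.17, adjusted p = 0.572).

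On the higher side stood Mrps6, a small subunit protein, with 41.1, 42.4 and 39.9 normalized reads in the homozygous libraries against 16.1 and 17.1 in the heterozygous ones. The spread within each group was small beside the gap, and the log2 difference was 1.26 (SE 0.42, adjusted p = 0.302). An unnamed feature on the opposite strand at that place, with 247 to 777 normalized reads, had a log2 difference of 0.73 (SE 0.31, adjusted p = 0.385), and since the strand setting of the count is not known, reads of the pair cannot be told apart.

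Tomm70, the receptor that takes carrier proteins from cytosolic chaperones, had 1329, 589 and 566 normalized reads in homozygous replicates 1 to 3 and 352 and 359 in the heterozygous libraries (1.10, SE 0.54, adjusted p = 0.441). The gap to the heterozygous group was smaller than the range among the homozygous libraries. In set 2 it had 666, 275 and 1185 in homozygous and 376, 902 and 659 in wild-type libraries. Over all 11 libraries its highest value, in homozygous replicate 1, stood 4.82-fold above its lowest, in homozygous replicate 5, the widest range of any member with a mean of at least 50.

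Tfam had separated groups and the same sign in both sets. In set 1 it had 459, 500 and 455 normalized reads in homozygous and 340 and 381 in heterozygous libraries (0.39, SE 0.20, adjusted p = 0.455), close in size to its difference of 0.36 from wild type in set 2. Neither passed the threshold. Mrpl32, a large subunit protein, had 211, 229 and 174 against 157 and 149 (log2 difference 0.40, SE 0.23, adjusted p = 0.503). Mrps22 and Tomm20l, a relative of Tomm20, had under 10 normalized reads in every library, with differences of 1.32 (adjusted p = 0.476) and 0.98 (adjusted p = 0.600). Tufm differed by 0.05 (SE 0.20, adjusted p = 0.943).

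Markers of several cell types also differed in value between heterozygous libraries and homozygous replicates 1 to 3, and their part in the members' values was not tested. The 4 endothelial and pericyte markers tested of 7 summed to 1817 and 3565 CPM at their lowest and highest in heterozygous libraries and to between 689 and 1096 CPM in homozygous replicates 1 to 3. All 4 were lower in the homozygous libraries, with a median log2 difference of -1.27. The 5 neuron markers tested of 6 summed to 3536 to 4343 CPM in heterozygous and 4854 to 6533 CPM in homozygous libraries, with a median of 0.69 and 4 of 5 positive. Calb1 and Neurod1 of the cerebellar list summed to 88.3 to 212 CPM in heterozygous and 210 to 569 CPM in homozygous libraries, with a median of 1.63. The median was 0.83 for 3 meningeal fibroblast markers and -0.65 for 3 microglia markers. None of the markers of these lists passed the threshold. In set 2 the endothelial and pericyte sum was 663 to 1091 CPM in homozygous and 874 to 1371 CPM in wild-type libraries. Against wild type the median log2 difference was 0.41 for microglia, 0.31 for neuron and 0.28 for choroid plexus markers. It was -0.33 for endothelial and pericyte, -0.31 for blood and -0.27 for meningeal fibroblast markers. The remaining marker lists had medians between -0.14 and 0.0061. The lowest of these was that of astrocytes, whose 5 markers ran from -0.85 to 1.235, with 2 positive and 3 negative. Among them Gfap stood at 4223, 4144 and 2996 CPM in homozygous replicates 4 to 6. In wild type it stood at 2581, 899 and 1732.5 CPM, without overlap. The part of these markers in the members' difference from wild type was not tested.

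The heterozygous libraries are never in a set with wild type. The contrast between them was therefore taken as the homozygous difference from wild type minus that from heterozygous, and it has the errors of both. No member passed the threshold in limma, and none of the 20956 features did (0%). Of the 49 members 4 had an unadjusted p under 0.05 on the higher side (background 3.9%) and 0 on the lower (background 4.07%). A positive log2 difference was found for 34 of them (background 48.6%). The 4 with an unadjusted p under 0.05 were Mrpl54 (log2 difference 1.03, SE 0.28, adjusted p = 0.585), Timm21 (0.74, adjusted p = 0.608), Mrpl12 (0.62, adjusted p = 0.597) and Tomm7 (0.63, adjusted p = 0.611). Their heterozygous and set 1 homozygous values are those already given. The contrast is made of the differences inside set 1 and set 2, so it repeats both and is no second observation. The median of the 49 members was 0.24 in it, against 0.26 for homozygous against wild type and 0.05 for homozygous against heterozygous. Protein-coding features with a mean of at least 50 had a median of 0.31 in length quartile 1 and -0.12 in quartile 4. Tfam stood at -0.02, Tufm at 0.12 and Lonp1 at 0.20.

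Promoters are shown for 5 members on which these results turn, because the nuclear genes for mitochondrial proteins are known for promoters with sites of a few factors. The sequences run from 250 bases before to 50 after the gene's start in RefSeq, build GRCr8, and 45 of the 53 members had an entry. Capitals mark the letters searched on both strands: the ETS core CCGGAAG (bound by factors such as GABP), the NRF1 core (GCGCA, 1 base of any kind, then GCGC) and the YY1 core AAGATGGCG. Tfam (chr20:17355123-17355422, + strand) has an ETS core, Mrpl57 (chr15:36086207-36086506, + strand) an ETS core and 2 NRF1 cores, Mrpl50 (chr5:68668038-68668337, - strand) a YY1 core and Tomm7 (chr4:12197253-12197552, + strand) an NRF1 core, while Mrpl54 (chr7:9103275-9103574, + strand) has none of the 3.
Tfam: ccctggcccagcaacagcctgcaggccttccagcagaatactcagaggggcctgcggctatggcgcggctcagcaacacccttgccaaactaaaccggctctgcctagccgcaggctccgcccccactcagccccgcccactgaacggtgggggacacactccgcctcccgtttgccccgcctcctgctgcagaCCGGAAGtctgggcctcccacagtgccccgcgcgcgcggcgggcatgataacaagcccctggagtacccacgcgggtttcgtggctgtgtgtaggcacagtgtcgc
Mrpl57: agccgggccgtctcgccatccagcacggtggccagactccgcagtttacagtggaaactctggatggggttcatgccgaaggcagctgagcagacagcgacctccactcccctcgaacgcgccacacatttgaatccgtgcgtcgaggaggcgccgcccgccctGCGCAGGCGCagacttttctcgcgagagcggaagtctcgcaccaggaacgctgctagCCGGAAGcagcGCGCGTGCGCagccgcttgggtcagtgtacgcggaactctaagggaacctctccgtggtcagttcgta
Mrpl50: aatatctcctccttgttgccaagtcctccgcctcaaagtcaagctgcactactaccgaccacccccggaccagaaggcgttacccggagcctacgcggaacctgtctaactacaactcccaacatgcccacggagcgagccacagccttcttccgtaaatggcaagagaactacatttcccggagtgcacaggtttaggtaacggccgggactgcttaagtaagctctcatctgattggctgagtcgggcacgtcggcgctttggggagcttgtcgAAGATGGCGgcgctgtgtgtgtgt
Tomm7: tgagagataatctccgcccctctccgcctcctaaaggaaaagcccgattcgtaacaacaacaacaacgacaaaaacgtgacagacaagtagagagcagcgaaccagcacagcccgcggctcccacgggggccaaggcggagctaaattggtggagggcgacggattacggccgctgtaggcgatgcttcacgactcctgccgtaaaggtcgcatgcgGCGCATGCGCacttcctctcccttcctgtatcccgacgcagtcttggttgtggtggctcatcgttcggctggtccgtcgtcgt
Mrpl54: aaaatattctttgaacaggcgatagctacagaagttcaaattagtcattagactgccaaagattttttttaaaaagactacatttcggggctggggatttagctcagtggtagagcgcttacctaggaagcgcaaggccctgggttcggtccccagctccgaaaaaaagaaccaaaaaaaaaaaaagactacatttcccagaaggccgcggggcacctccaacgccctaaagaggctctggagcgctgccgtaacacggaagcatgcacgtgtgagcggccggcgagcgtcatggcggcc

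Counted over all entries, the ETS core was in 14 of the 45 member promoters (31.1%) and in 8.75% of all 33469 promoters of the table. The NRF1 core was in 8 members (17.8%, against 4.25%), the YY1 core in 6 (13.3%, against 1.73%) and the TATA box letters TATAAA in 5 (11.1%, against 14.2%). At a mean of at least 50, the ETS core was in 6 of 27 member promoters (22.2%) and in 16.2% of the 3023 promoters of protein-coding genes at that level. There the NRF1 core was in 5 (18.5%, against 9.63%), the YY1 core in 5 (18.5%, against 3.54%) and TATAAA in 3 (11.1%, against 6.62%). In 0 of the 45 promoters did matches of different motifs overlap. A match is a description of the letters and not of binding.

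The rest of the pathway was followed in lists of partner genes. In the wild-type comparison, assembly and rRNA modification factors of the mitochondrial ribosome had a median log2 difference of 0.47, with 6 of 7 tested genes positive. Ddx28, a helicase of ribosome assembly, had a value of 0.47 (SE 0.20, adjusted p = 0.757). The nuclear respiratory chain subunits, which are among the imported proteins, had a median of 0.31 with 17 of 19 features of 18 genes positive. Cytosolic ribosomal proteins had a median of 0.41 with 16 of 18 positive. Beside these, 49.9% of all features were positive, and 81.3% of length quartile 1, whose median was 0.25. Whether the lists differ from features of like length was not tested. Of the respiratory chain subunits, Atp5o, a subunit of ATP synthase, had a mean of 5905 normalized reads in homozygous and 4014 in wild-type libraries (0.56, SE 0.17, adjusted p = 0.596), and Cox7a2 of cytochrome c oxidase 5040 and 3512 (0.53, SE 0.19, adjusted p = 0.710). The cytosolic ribosomal protein Rps3 had 6379 and 4334 (0.57, SE 0.23, adjusted p = 0.742). None of these genes passed the threshold.

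The remaining partner lists were smaller in their shift or split in direction. The import motor, processing and sorting genes had a median of 0.13 with 7 of 10 positive, and without homozygous replicate 6 the median was -0.04 with 5 of 10 positive. One of them was Grpel1, the exchange factor of the matrix Hsp70 motor, at 1498 ± 65.5 normalized reads (SD, n = 3) in homozygous and 1060 ± 120 (SD, n = 3) in wild-type libraries (0.50, SE 0.16, adjusted p = 0.668). Slirp, a partner of mitochondrial mRNAs listed with the genes of mitochondrial DNA maintenance and transcription, had 486 ± 24.2 against 326 ± 34.7 (SD, n = 3 each, log2 difference 0.58, SE 0.19, adjusted p = 0.670), while that list of 8 had a median of 0.02. The medians were 0.06 for aminoacyl-tRNA synthetases (4 of 7 positive), 0.04 for proteases and chaperones (2 of 4), 0.27 for regulators of biogenesis (2 of 3) and -0.22 for translation factors (1 of 4). Without homozygous replicate 6 the proteases and chaperones were at -0.20 and the translation factors at -0.54.

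The products of the mitochondrial genome had medians on the opposite side. The 6 respiratory chain subunits of mitochondrial DNA that were tested had a median log2 difference of -0.73 from wild type with 0 positive, and without homozygous replicate 6 the median was -0.27. Their sum was 4371.5, 7612.2 and 1521.3 CPM in homozygous replicates 4 to 6. In wild type it was 10243, 4350.5 and 5244.5 CPM, so the groups overlapped. In set 1 the median of the 6 against heterozygous libraries was -1.17, with 5 of 6 negative. Of the 6, Mt-nd4 had means of 5600 normalized reads in homozygous and 9541 in wild-type libraries (log2 difference -0.95, SE 0.50, adjusted p = 0.831) and Mt-nd5 5444 and 8179 (-0.81, SE 0.48, adjusted p = 0.846), while Mt-nd1 and Mt-co2 had means under 7 in each group. None of the 6 passed the threshold in either comparison. In set 1 the cytosolic ribosomal proteins had a median of -0.56 with 15 of 18 negative. The nuclear respiratory chain subunits had a median of -0.15 with 14 of 19 features negative. The assembly factors stayed positive in 6 of 7 with a median of 0.21. Beside these, 52.7% of all features were positive in set 1, and 47% of length quartile 1.

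No single partner gene in set 1 passed the threshold. On the lower side 8 of the 18 cytosolic ribosomal proteins and 4 of the 6 mitochondrial genome subunits had an unadjusted p under 0.05 in limma (background 5.96%). Among them were Rpl35, with a mean of 4211 normalized reads in homozygous and 8111 in heterozygous libraries (log2 difference -0.95, SE 0.25, adjusted p = 0.253), and Mt-nd5, with 4598 and 12280 (-1.46, SE 0.54, adjusted p = 0.341). In the lists nearer to the ribosome and import, Gtpbp10, a GTPase of ribosome assembly, had a mean of 172 normalized reads in homozygous and 117 in heterozygous libraries (log2 difference 0.56, SE 0.23, adjusted p = 0.375). Gfm1, the elongation factor that moves the ribosome along its message, had 598 against 802 (-0.42, SE 0.22, adjusted p = 0.478). Yars2, the tyrosyl-tRNA synthetase of mitochondria, had 185 against 125 (0.56, SE 0.26, adjusted p = 0.417), and Mtx2, an outer membrane protein of import and sorting, 380 against 240 (0.67, SE 0.30, adjusted p = 0.408). Over the lists, the set 1 medians were 0.16 for the import genes, 0.15 for the aminoacyl-tRNA synthetases, 0.07 for maintenance and transcription partners, 0.02 for proteases and chaperones, -0.18 for translation factors and -0.45 for regulators of biogenesis.

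Timm17b, the X-linked relative of Timm17a, was singled out after its values were seen, because it was near absent in some libraries and clearly present in others of the same group. It had 70.1 and 137 normalized reads in homozygous replicates 4 and 6, 58.3 in heterozygous replicate 1 and 60.1 in wild-type replicate 2. In the other 7 libraries it had between 0.721 and 5.47. The groups overlapped in both sets (log2 difference 1.66, SE 1.42, adjusted p = 0.907 against wild type, and -1.78, SE 1.59, adjusted p = 0.684 against heterozygous). An unnamed feature on the same strand at this place had 4.68 to 31.0 normalized reads. Timm17a, by contrast, had 1307, 1412 and 1836 in homozygous replicates 4 to 6 and 1025, 1220 and 1261 in wild type (0.37, SE 0.18, adjusted p = 0.815), without overlap.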

How the data were processed

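RNA was sequenced from 11 libraries, each deposited as 1 table. The submitters' processing notes name the aligner HISAT2 2.0.4, the quality tool FastQC and, as build, rn6. Which program counted reads, with which annotation and strand setting, is not given in the sources used here. Deposited values hold a read signal per feature, in which the authors divided each feature's reads by 1 size factor per library (0.807 to 1.39). Whole reads were recovered from this deposited signal for 100% of values at a tolerance of 0.001. Median-of-ratios factors computed from those reads equalled the deposited ones only when the libraries were taken as 2 sets, and scaling all 11 together moved libraries by -1.27% to 0.99%.

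The deposited values were compared as log2(value + 1) by limma 3.58.1 under R 4.3.3, with its variance trend, for the 20956 features listed in every file whose mean reached 1. The fit held the group and the set, and p-values were adjusted by the Benjamini-Hochberg method over all features at a threshold of 0.05. The set term was added because a look at these data showed that the tables were normalized separately, and the fit without it is among the alternatives. Of the members 49 were tested, and Timm8a2, Tomm34, Mrps11 and Mrps9 were under the minimum mean. Levels are CPM after TMM scaling, and per-length levels use the length given in the files. Alternatives, among them edgeR 4.0.16 and DESeq2 1.42.0 on the recovered reads, numbered 24, and under edgeR 5 features passed against wild type and 0 against heterozygous. Self-tests on simulated data were run.

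Named are Tfam, Tufm and Lonp1, up to 6 members per direction with the smallest p in each comparison inside a set, per class the member with the highest mean and that with the widest range, and up to 2 genes per partner list and comparison. Members, partner lists and tests were chosen with earlier results of these data known. Deviations of same-numbered libraries from their group means had correlations of -0.16 to 0.24, not all above 0.1, so the numbers were not treated as pairs.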

Additional observations from a re-analysis of the deposited data

Results flagged for a closer look

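In 3 of 36 sets of 6 homozygous values that were examined, 1 library lay far from the other 5, with a gap, as a share of the whole range, above Dixon's critical value. Chance gives such a gap in about 1 in 20 groups. Values here are normalized reads with all libraries scaled together. Mrpl41, a large subunit protein, stood at 1489.5 in homozygous replicate 6, with a gap of 0.834 of the range. Mrps6, a small subunit protein, stood at 73.0 in the same library, with a gap of 0.761. Timm8a1, an intermembrane space chaperone, stood at 5.22 in homozygous replicate 2, with a gap of 0.775 and a handful of reads behind it.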

How the results depend on the processing

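No member passed the threshold under any of the 24 alternatives in either comparison inside a set. The count of features against wild type, 8, was 5 with a pseudocount of 5, 5 with edgeR under either scaling, 4 with limma-voom, 38 with DESeq2, 2 with a term for Eif2s3y, 3 with the libraries of the 2 groups alone, and 2 to 11 with single libraries left out (3 without homozygous replicate 4, 2 without wild-type replicate 3). Against heterozygous it was 0, and 205 with DESeq2, 17 without the set term, 5 with the Eif2s3y term and 0 to 3 with single libraries left out. The members' median against wild type, 0.26, was 0.11 without the set term and 0.22 to 0.34 with single libraries left out. Against heterozygous it was 0.05, and -0.084 to 0.12 with single libraries left out, the lowest without homozygous replicate 2. Positive members with a mean of at least 50 against heterozygous numbered 13, and 20 without the set term. Members apart from the heterozygous group numbered 6 higher and 7 lower, and 6 to 12 and 7 to 12 with single libraries left out (12 higher without heterozygous replicate 1, 12 lower without homozygous replicate 2, 11 lower without heterozygous replicate 2). Mrpl33 against wild type was 0.11 without the set term.

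Some small differences turned sign with single libraries left out. Against wild type these were Mrpl33 (-0.42 to 0.12) and Lonp1 (-0.10 to 0.027), and against heterozygous Tufm (-0.074 to 0.17). Between heterozygous and wild type they were Tfam (-0.11 to 0.072) and Tufm (-0.039 to 0.24). The cause was not tested.

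The replicate block was fitted although same-numbered libraries correlated weakly in their deviations (0.18 and 0.19 for homozygous with heterozygous, -0.03, 0.24 and -0.16 with wild type). It sets homozygous replicates 1 to 3 against wild type across the sets. With the replicate block 4 features passed against wild type and 2 against heterozygous, the members' median against wild type was -0.026 and 9 members with a mean of at least 50 were positive. There Lonp1 stood at 0.054, Mrpl15 at -0.056, Mrpl33 at 0.33, Mrpl50 at -0.080, Mrpl54 at -0.16, Mrpl57 at -0.0044, Mrps18b at 0.0054, Mrps28 at -0.026 and Tomm5 at -0.081, and Tufm between heterozygous and wild type at -0.015.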

Other observations

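Taken as a description without a test, log2 CPM of 21 of the 30 members with a mean of at least 50 had a correlation above 0.5 with the median of the other members over the 11 libraries, with a median of 0.70, and 1 member, Lonp1, was below -0.5. Log2 CPM of 25 of the 30 had a correlation above 0.5 with the nuclear respiratory chain list, Mrpl50 (0.94), Mrpl3 (0.88), Mrpl46 (0.88) and Mrps28 (0.88) being the closest. All points share library depth and scaling, and the 3 genotypes are pooled. How many features outside the members lie above 0.5 was not counted. Neither these counts nor those of the next paragraph therefore set the members apart from other genes. Lonp1 was the member farthest from the nuclear respiratory chain list, at -0.36.

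With the cytosolic ribosomal proteins 5 members were above 0.5. Mrpl54 had a correlation of 0.94 with that list, Timm50 0.80, Mrpl12 0.78, Tomm7 0.77 and Mrps16 0.74, while Tomm70 was at -0.79. Of these 5, Timm50 was at 0.088 with the nuclear respiratory chain list and the other 4 were between 0.53 and 0.63. With the respiratory chain subunits of the mitochondrial genome, 14 members were below -0.5, led by Tomm70 (-0.86) and Tfam (-0.85), and Timm50 (0.69) and Lonp1 (0.64) were above 0.5. That list spanned the widest range of the partner lists over libraries, with a median deviation of -1.62 in homozygous replicate 6, -0.76 in homozygous replicate 1, 0.76 and 0.82 in the heterozygous libraries and 0.98 in wild-type replicate 1.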
